A study of Mus musculus with 8 samples.

Results

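Leukocyte adhesion molecules and their partners are described here as 9 genes chosen by name, among 32285 genes counted in a single-cell RNA table of 11806 mouse lung cells. They are the selectins Sele and Selp, the selectin ligand Selplg, the immunoglobulin-type ligands Icam1, Icam2 and Vcam1, and the integrin alpha chains Itgal, Itgam and Itga4. All 9 were found in the table. The lungs came from 5-day-old C57BL6/J pups labelled WT. Every pup had been exposed before birth to LPS, a bacterial endotoxin, at day 14 of gestation, the controls included. From birth 1 group was kept in air at 21% oxygen (4 libraries) and the other in hyperoxia at 65% oxygen (4 libraries), a mouse model of the lung disease of preterm infants. The lungs were frozen in DMSO and serum, thawed and flow-sorted for endothelial, epithelial and immune cells before droplet sequencing of transcript 3' ends, so cell shares follow the sort. The table pools all cells, and 0 of the 8 library labels matched a column name, so air and hyperoxia were not compared and each set of cells below is 1 pooled sample with no replicates and no test.

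Leukocytes leave the blood in steps. Endothelial E-selectin and P-selectin catch glycans carried by PSGL-1 on leukocytes, which roll and then arrest when activated integrins bind ICAM-1, ICAM-2 and VCAM-1 on the vessel wall. P-selectin is also stored with von Willebrand factor in endothelial granules and in platelets. In the lung much of this traffic passes through capillaries narrow enough to slow leukocytes without rolling.

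Cells were placed in 13 groups by thresholds on UMIs (unique molecular identifiers, each standing for 1 counted transcript), none of them of a member gene. The endothelium (Cdh5 and Cldn5 at 2 or more together) held 609 cells. It was split into 68 arterial cells by Gja5 and Bmx, 232 general capillary cells by Gpihbp1, Plvap and Aplnr, 160 Car4 capillary cells (aerocytes) by Car4 and Ednrb, and 149 other endothelial cells. The remaining groups were 124 alveolar type 1 (AT1) cells, 962 alveolar macrophages, 561 classical monocytes, 2310 nonclassical monocytes, 387 neutrophils, 683 T cells, 189 NK cells, 138 B cells and 5843 cells of no gate. Levels are CPM, the member's UMIs divided by the group's UMIs and multiplied by 1000000, with an exact 95% Poisson interval. Shares of cells carry exact binomial intervals where given. Both cover counting error only.

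The gates were checked against markers that they did not use. Of these, 5 of 6 arterial, 6 of 6 Car4 capillary, 6 of 6 AT1, 7 of 7 neutrophil, 6 of 6 T, 6 of 6 NK and 5 of 5 B markers were highest in the group of that name, against 3 of 6 for the general capillary. Of the monocyte and macrophage lists, 5 of 5 classical monocyte, 6 of 7 alveolar macrophage and 5 of 6 nonclassical monocyte markers were highest in their group. The nonclassical list summed higher in neutrophils (2416 CPM) than in nonclassical monocytes (2106 CPM), with 1 of its 6 markers highest in neutrophils. Total UMIs were 77020720, with a median of 4425 per cell. The barcodes fell into 8 runs of 282 to 3355 cells, which were not assigned to libraries and are used only to show spread. Barcodes shared by more than 1 run numbered 12. A cell was called mixed when it passed the gates of 2 lineages, when an endothelial or AT1 cell held a UMI of the leukocyte gene Ptprc, or when an immune cell held one of Cdh5, Cldn5, Epcam or Rtkn2. By this definition 681 of the 5963 gated cells were mixed, among them 42 of the 68 arterial cells. Arterial Ptprc stood at 308 CPM, against 29.1 in the general capillary. The arterial group also held all 7 neutrophil markers (summed 1169 CPM) and all 5 classical monocyte markers (summed 997 CPM). It held all 5 alveolar type 2 (AT2) markers too (summed 3651 CPM). Leaving out mixed cells raised the arterial level of the AT2 gene Sftpc from 3419 to 13031 CPM, against 2056 and 2684 CPM in the general capillary. The part of this epithelial and leukocyte RNA in the arterial levels was not tested. The erythroid markers were all at 0 there.

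The sequence upstream of the start site was available for 5 of the 9 members (Sele, Selp, Icam1, Itgam and Itga4; RefSeq, GRCm38.p6). Those of the endothelial Sele, Selp and Icam1 and the myeloid Itgam are shown because each held a match to a motif searched. Each run is the 250 bases before the RefSeq start, on the plus strand, 5′ to 3′. Capitals mark matches, on either strand, to 4 motifs. GGANNTTCC is a form of the site of NF-kappa B factors. The letters TGANTCA spell the site of AP-1 factors. The core of a site of the myeloid factor PU.1 is written GAGGAA here. A TATA box, near which transcription starts, is written TATAAA here. The form of the kappa B motif was chosen after the sequences had been seen.
Sele, chr1:164047984-164048233: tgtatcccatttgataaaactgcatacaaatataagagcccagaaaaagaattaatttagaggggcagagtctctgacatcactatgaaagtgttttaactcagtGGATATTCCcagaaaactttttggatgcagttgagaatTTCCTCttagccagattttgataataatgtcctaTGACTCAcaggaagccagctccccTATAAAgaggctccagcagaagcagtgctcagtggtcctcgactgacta
Selp, chr1:164115014-164115263: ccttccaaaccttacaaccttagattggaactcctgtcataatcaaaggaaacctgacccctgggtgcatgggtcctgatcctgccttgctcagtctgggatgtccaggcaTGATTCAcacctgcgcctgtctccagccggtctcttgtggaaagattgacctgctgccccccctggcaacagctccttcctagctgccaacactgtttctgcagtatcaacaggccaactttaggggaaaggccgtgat
Icam1, chr9:21015690-21015939: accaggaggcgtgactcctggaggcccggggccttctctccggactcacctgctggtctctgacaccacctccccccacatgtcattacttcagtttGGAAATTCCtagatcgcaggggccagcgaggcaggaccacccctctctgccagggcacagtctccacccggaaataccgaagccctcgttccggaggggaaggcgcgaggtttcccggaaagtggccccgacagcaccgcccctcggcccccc
Itgam, chr7:128062390-128062639: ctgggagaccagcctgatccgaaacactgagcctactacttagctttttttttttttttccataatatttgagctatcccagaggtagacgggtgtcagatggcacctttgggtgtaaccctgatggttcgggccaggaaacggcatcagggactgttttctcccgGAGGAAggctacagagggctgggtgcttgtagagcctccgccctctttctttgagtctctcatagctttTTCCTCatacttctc

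Sele held 1 match to each of the 4 motifs. Its kappa B-like match GGATATTCC began 145 bases before the start and its TATAAA match 49 bases before it. Icam1 held the kappa B-like match GGAAATTCC, beginning 153 bases before its start. Selp held 1 AP-1 match, TGATTCA, 139 bases before its start. Itgam held 2 GAGGAA matches, 1 on each strand. Itga4 held no match to these letters. Among 32851 RefSeq upstream windows of 250 bases, 3.59% held the kappa B-like motif, 6.75% TGANTCA, 23.3% GAGGAA and 12.4% TATAAA. A match is a description of letters, not of binding.

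In the GRCm38 annotation Sele lies on chromosome 1 at 164048234 to 164057677 and Selp at 164115264 to 164150026, both on the plus strand. They stand 57586 bases apart. Itgal (127296260 to 127335138) and Itgam (128062640 to 128118491) share the plus strand of chromosome 7. Icam1 lies on chromosome 9 at 21015985 to 21028817, with Icam4 555 bases after it. Counted 3' reads near such a close neighbour may be assigned to either gene. Icam2 lies on chromosome 11 at 106377656 to 106388075, Vcam1 on chromosome 3 at 116109949 to 116129688 and Selplg on chromosome 5 at 113818536 to 113832644, all on the minus strand. Itga4 lies on chromosome 2 at 79255426 to 79333123 on the plus strand.

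**Figure D1:**
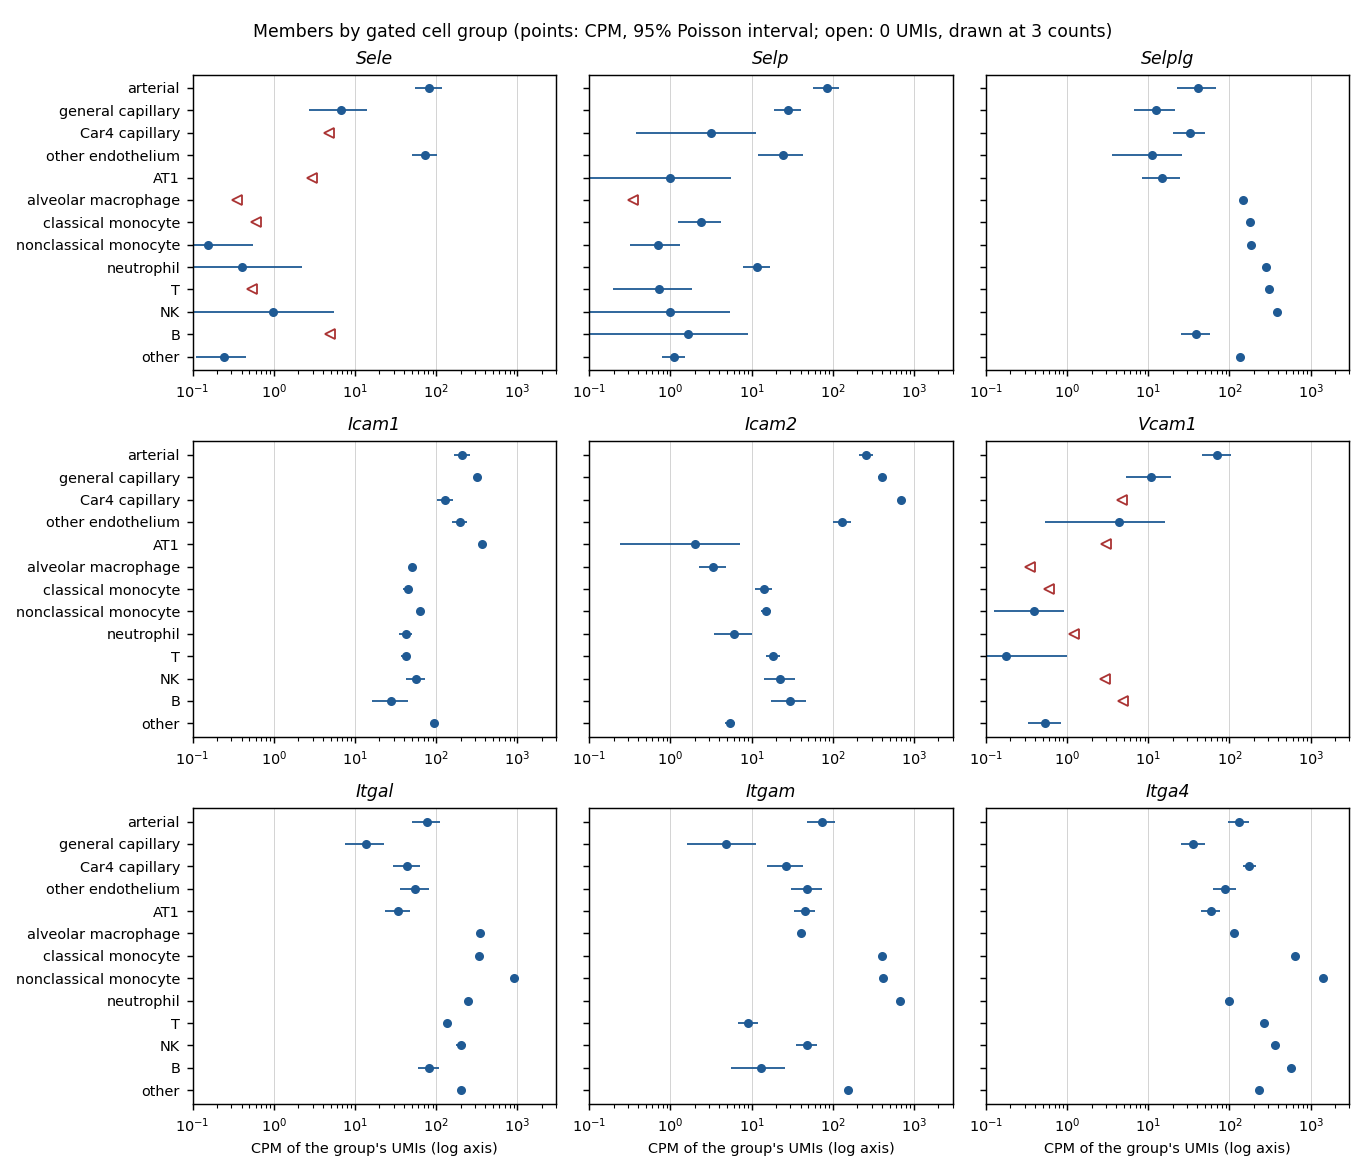
Level of each member in the 13 gated groups (CPM, log axis), with points at the group's CPM, bars for the 95% Poisson interval and open triangles for groups with 0 UMIs drawn at 3 counts. Sele, Selp and Vcam1 were highest in arterial cells, Icam2 in Car4 capillaries at 698 CPM, Itgam in neutrophils at 665 CPM, and Itgal and Itga4 in nonclassical monocytes.

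Set against all other cells, the endothelium was at least 4-fold higher for Sele, Selp and Icam2, 3 of the 8 members tested, where 12.4% of all tested genes were. It was at least 4-fold lower for Selplg, Itgal, Itgam and Itga4, 4 of 8, where 7.21% of all tested genes were. A gene was tested when it reached 20 CPM on either side. Vcam1, at 15.7 CPM in the endothelium, fell short. The median log2 difference over the 8 members (with 10 CPM added to each level) was -0.32, against 0.18 over all 8289 tested genes. Icam1 stood at 233 CPM in the endothelium and 77.4 CPM elsewhere, a ratio of 3.01 (2.76 to 3.28).

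Sele encodes E-selectin, which endothelium displays after inflammatory activation. It was found in 7 of 609 endothelial cells, with 70 UMIs in all. The arterial cells gave 81.7 CPM (55.1 to 117), the other endothelium 72.8 (50.1 to 102) and the general capillary 6.79 (2.73 to 14). In the Car4 capillary it was found in 0 of 160 cells, where 3 counts would be 4.72 CPM. The first 2 groups did not differ beyond their intervals. These sums rested on single cells. Of the 30 arterial UMIs, 21 lay in 1 cell, and of the 33 UMIs in the other endothelium 32 lay in 1 cell. Without its top cell the arterial level was 24.9 CPM, without run 5 it was 28.9 and without run 6 it was 131. With mixed cells left out the order of the first groups turned, with 96.8 CPM in the other endothelium and 63.5 CPM in the arterial cells. The other 11197 cells of the table held 13 Sele UMIs in 7 cells, a level of 0.174 CPM. The 7 endothelial carriers also held Icam1 in 6 cells, Icam2 in 5, Vcam1 in 3 and Selp in 3.

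Selp encodes P-selectin. It was spread over more endothelial cells than Sele, 25 of 609, with 73 UMIs. It stood at 84.5 CPM (57.4 to 120) in arterial cells, 28.1 (18.9 to 40.4) in the general capillary, 24.3 (12.1 to 43.4) in the other endothelium and 3.14 (0.381 to 11.4) in the Car4 capillary. Only 1 of 160 Car4 capillary cells held it, against 12 of 232 general capillary cells. The 12 general capillary carriers came from 6 of the 8 runs. Of the 31 arterial UMIs 17 lay in 1 cell, and the level without that cell was 38.4 CPM. Leaving out run 5 gave 41.7 CPM and leaving out run 6 gave 136. Without mixed cells the arterial level was 222 CPM (137 to 340) over 3 carriers.

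Outside the endothelial gate Selp was highest in neutrophils, at 11.7 CPM (7.84 to 16.8), with 29 UMIs in 20 of 387 cells. The share was 5.17% as deposited and 2.22% when each cell was thinned to 2000 UMIs. Alveolar macrophages, with a larger median depth of 7506.5 UMIs per cell against 5200 in neutrophils, held it in 0 of 962 cells. The platelet markers Pf4, Itga2b, Gp9, Ppbp and Gp1bb were at 0 in all 20 neutrophils with Selp, and 4 of the 367 without Selp held one. Gp9 and Gp1bb were at 0 in all 13 groups, so they could not show platelet RNA here. With a share of 1.09% among neutrophils without Selp, a 0 in 20 cells cannot tell whether platelet RNA was present. Mixed cells made up 11 of the 387 neutrophils, and without them the level was 10.8 CPM.

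Vcam1 encodes the endothelial ligand of the integrin formed by Itga4 and Itgb1. It gave 70.8 CPM (46.3 to 104) in arterial cells, 10.7 (5.33 to 19.1) in the general capillary and 4.41 (0.534 to 15.9) in the other endothelium. It was found in 9 of 68 arterial cells, from 4 runs, and in 0 of 160 Car4 capillary cells. In the 3 runs with at least 10 arterial cells the arterial level lay between 50.5 and 181 CPM, so in none of them was it at 0. Without mixed cells the arterial level was 148 CPM (81 to 248), in 6 of 26 cells. Among cells of no gate the highest levels were 4.42 CPM in 231 cells with C1q, complement genes of macrophages, and 4.03 CPM in 93 Ccr7 cells. The immune-gated groups together stood at 0.165 CPM.

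Arterial cells were at least 4-fold above the general capillary for Sele, Vcam1, Itgal and Itgam, 4 of 9 members tested, where 5.37% of all tested genes were. The Sele call rests on 1 cell, since the arterial level without its top cell, 24.9 CPM, is under 4-fold above the 6.79 CPM of the general capillary. No member was as much lower, where 2.95% of genes were. With mixed cells left out, the higher members were Sele, Selp and Vcam1, 3 of 5 tested, where 7.46% of genes were. The Sele values were then 6 UMIs in 1 cell on each side, and 17 of the 21 arterial Selp UMIs lay in 1 cell. Itgal and Itgam then fell to 0 UMIs in the 26 arterial cells left. Since a Ptprc UMI defines a mixed endothelial cell, the loss of leukocyte genes is in part fixed by that definition.

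**Figure D2:**
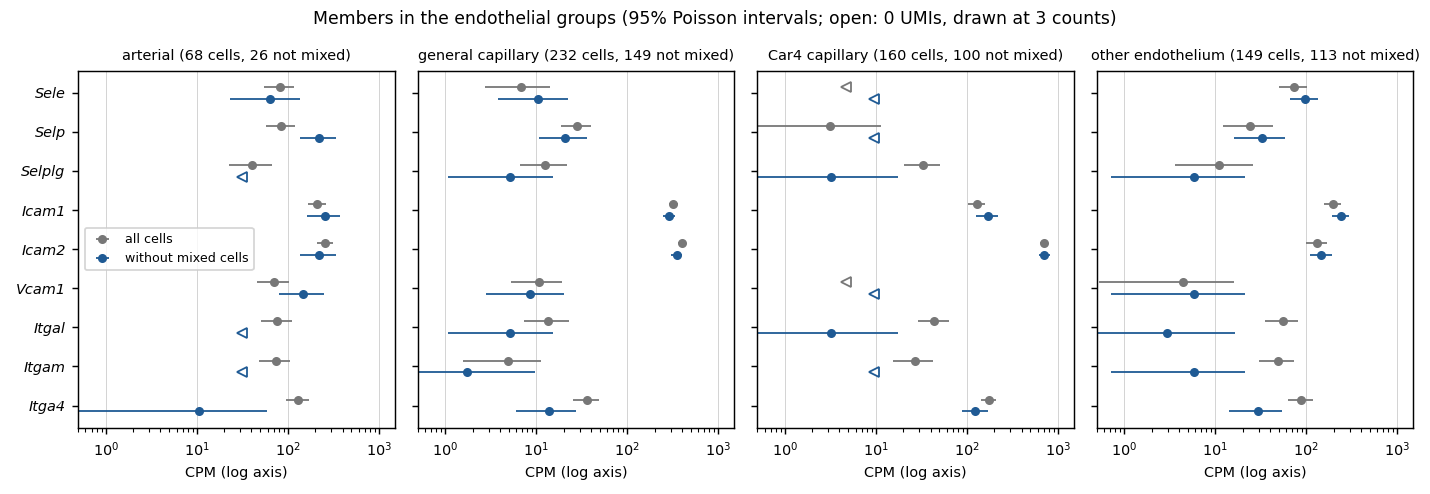
Members in the 4 endothelial groups (CPM, log axis, 95% Poisson intervals) over all cells (grey) and without mixed cells (blue), with open triangles for 0 UMIs drawn at 3 counts. Icam1 and Icam2 kept their order of levels between capillaries, Itgal and Itgam fell to 3.76 and 2.26 CPM over the endothelium, and Itga4 in the Car4 capillary stood at 176 CPM over all cells and 125 CPM without mixed cells.

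Icam2 encodes a ligand of the Itgal integrin that resting endothelium carries. It was found in 360 of 609 endothelial cells, more than any other member. Its level was 698 CPM (635 to 766) in the Car4 capillary, 400 (362 to 440) in the general capillary, 259 (209 to 316) in arterial cells and 130 (99 to 168) in the other endothelium. The Car4 capillary exceeded the general capillary 1.75-fold (1.52 to 2.00), in 5 of 5 runs with 10 cells of each. Leaving out mixed cells, the ratio was 2.05 (1.69 to 2.50). AT1 cells, which should lack it, stood at 1.98 CPM with 2 of 124 cells positive at a median of 5835.5 UMIs.

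Leukocytes held Icam2 at lower levels. B cells stood at 29.3 CPM (17.4 to 46.3), NK cells at 22.5 (14.2 to 33.7) and T cells at 18.3 (15 to 22.2), and neighbours in this order did not differ beyond their intervals. Nonclassical monocytes gave 15.0 CPM and classical monocytes 14.0 CPM. Neutrophils gave 6.05 CPM and alveolar macrophages 3.36 CPM. B cells exceeded neutrophils 4.84-fold (2.30 to 10.3). The B cell level rested on 18 UMIs, and the 2 runs with 10 or more B cells gave 0 and 32.8 CPM.

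Icam1 encodes the ligand shared by the Itgal and Itgam integrins. It was the only one of the 5 vascular ligands and selectins whose highest group was epithelial. AT1 cells, the flat cells of gas exchange, gave 369 CPM (332 to 408) with a UMI in 92 of 124 cells. The general capillary gave 322 (289 to 359), arterial cells 210 (166 to 262), the other endothelium 196 (158 to 241) and the Car4 capillary 129 (103 to 160). The 7 immune groups lay between 27.7 CPM in B cells and 62.7 CPM in nonclassical monocytes. AT1 cells and the general capillary did not differ beyond counting error, with a ratio of 1.14 (0.984 to 1.33). AT1 levels varied between runs, at 114, 350 and 623 CPM in the 3 runs with 10 or more AT1 cells. Without the run at 623 CPM the AT1 level was 252 CPM and the general capillary led at 312 CPM. A further 810 cells with the epithelial genes Epcam or Cdh1 gave 170 CPM, and AT1 cells exceeded them 2.17-fold (1.93 to 2.43). The AT1 group also held all 5 AT2 markers, at a summed 18786 CPM against 20222 CPM in the cells of no gate. Mixed cells made up 33 of its 124 cells. The part of this AT2 RNA in the AT1 level of Icam1 was not tested.

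Taken as whole gates, the 2 capillary types therefore stood in opposite order for the 2 ICAM genes. For Icam1 the general capillary exceeded the Car4 capillary 2.50-fold (1.96 to 3.22), in 4 of 5 runs, and 1.70-fold (1.24 to 2.36) without mixed cells. Of the general capillary cells, 53 with 2 or more UMIs of Vwf gave 709 CPM of Icam1. The other 179 gave 161 CPM (133 to 193), against 129 CPM in the Car4 capillary, with overlapping intervals. The Icam1 order was therefore clear only with the Vwf cells included. No ICAM ratio between the 2 capillary gates passed the 4-fold rule. Members past it, with the Car4 capillary higher, were Itgam and Itga4, 2 of 7 tested, where 3.36% of genes were. Selp was past it in the other direction, 1 of 7, where 4.09% of genes were. Without mixed cells Itga4 alone was past it as higher in the Car4 capillary, 1 of 4 tested, where 3.79% of genes were, and Selp as lower, 1 of 4, where 6.24% were.

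Vwf, which encodes von Willebrand factor, marks larger and venous vessels. Endothelial cells with 2 or more Vwf UMIs numbered 114, of which 53 lay in the general capillary gate, 46 in the arterial gate, 14 in the other endothelium and 1 in the Car4 capillary. Icam1 stood at 540 CPM (481 to 605) in them and 144 (128 to 162) in the other 495 endothelial cells, a ratio of 3.75 (3.17 to 4.43). It was higher in 6 of 7 runs. Of the 302 Icam1 UMIs in the cells with Vwf, 140 lay in 19 cells that also held Slc6a2, a transporter used as a marker of lung venous endothelium. The 95 Vwf cells without it gave 360 CPM (307 to 420), a ratio of 2.50 (2.05 to 3.04) to the 495. After thinning to 2000 UMIs, 26.7% of those 95 that were deep enough and 20.1% of the others held Icam1. Icam2 went the other way in level, at 315 CPM (270 to 365) against 433 (404 to 463). The share of cells with Icam2 did not follow its level, at 53.8% against 48.5% after thinning to 2000 UMIs. Vcam1 gave 59.1 CPM against 3.11, in 16 against 3 cells. Selp gave 51.9 CPM against 22.8, and without mixed cells 39.0 against 31.5. Sele gave 113 CPM against 3.63, on 5 and 2 carriers. Of the 63 Sele UMIs in the cells with Vwf, 32 lay in 1 cell and 21 in another.

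Within the general capillary gate the Icam1 difference was present too. The 53 cells with Vwf gave 709 CPM (617 to 810) and the 179 others 161 (133 to 193), 4.40-fold (3.50 to 5.56), in 7 of 7 runs. The 14 of them with Slc6a2 held 105 of the 215 UMIs, at 1293 CPM. The 39 without it gave 495 CPM (407 to 597), 3.07-fold (2.35 to 4.02) above the 179, with 22 of their 110 UMIs in 1 cell. In cells that were not mixed the levels were 592 and 135 CPM. The Car4 capillary without mixed cells stood at 169 CPM of Icam1, above the 135 CPM. Whether these 2 levels differ was not tested. After thinning to 2000 UMIs, 22 of 44 cells with Vwf and 30 of 142 others held Icam1. Icam2 was 303 against 440 CPM in the same cells. The cells with Slc6a2 were examined after the values by Vwf had been seen. Their Icam1 level was 1282 CPM, with a UMI in 17 of the 19 cells, against 185 CPM in the other 590 endothelial cells, in 5 of 6 runs. Without mixed cells the levels were 884 CPM in 14 cells and 216 CPM in 374. All 19 held 2 or more Vwf UMIs. Selp gave 9.16 CPM in them (1 UMI) against 30.3 CPM. The venous gene Ackr1 was at 0 in all 13 groups.

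**Figure D3:**
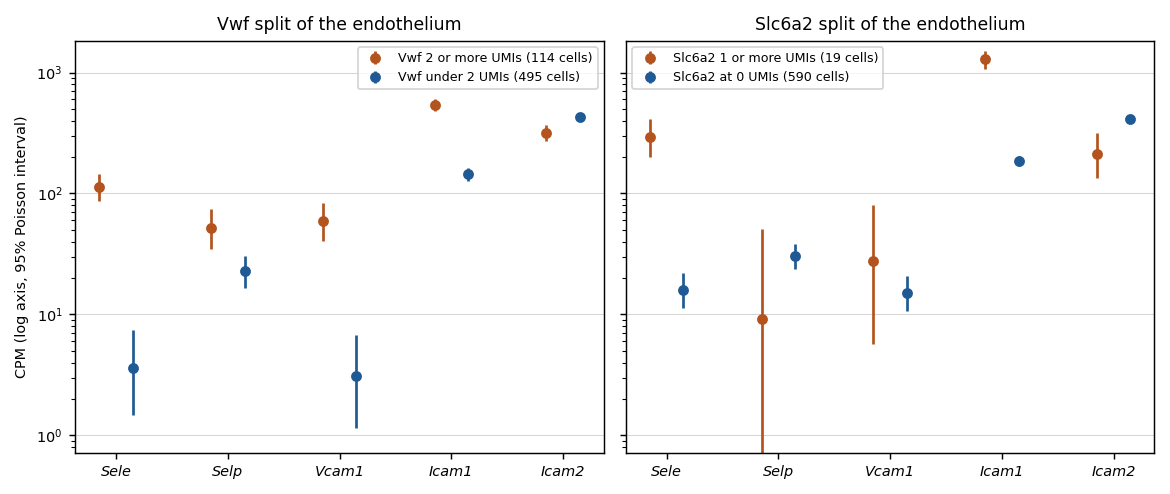
Levels of 5 members (CPM, log axis, 95% Poisson intervals) in endothelial cells split by Vwf (left) and by Slc6a2 (right). Icam1 stood at 540 against 144 CPM in the Vwf split and at 1282 against 185 CPM in the Slc6a2 split, while Icam2 was lower on the side where Icam1 was higher, and the Slc6a2 value of Sele came from 1 cell.

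Cells with lymphatic genes (Prox1 and Mmrn1 at 2 or more together) numbered 44. They gave 247 CPM of Icam2 and 80.4 CPM of Icam1, against 419 and 246 CPM in the other 565 endothelial cells. Sele was at 0 in them.

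Itga4 encodes the alpha 4 chain, which pairs with Itgb1 to bind VCAM-1 and with Itgb7 to bind MAdCAM-1. It is known as a leukocyte integrin, and it was also present in the Car4 capillary, at 176 CPM (145 to 212) in 55 of 160 cells. The general capillary gave 35.9 CPM (25.3 to 49.5) in 18 of 232 cells, a ratio of 4.90 (3.35 to 7.32), and the Car4 capillary was higher in 5 of 5 runs. Leukocyte RNA was present in both, with Ptprc at 72.3 and 29.1 CPM. Without mixed cells, which leaves Ptprc at 0, the levels were 125 CPM (88.5 to 170) in 29 of 100 cells and 13.8 CPM in 7 of 149, a ratio of 9.03 (4.16 to 22.4). In those 100 Car4 capillary cells Selplg and Itgal held 1 UMI each and Itgam none. Itgb1 was abundant in both capillaries, at 915 and 942 CPM, and Itgb7 was low at 6.29 and 3.88 CPM. Of the 55 Car4 capillary cells with Itga4, 51 also held Itgb1 and 1 held Itgb7. Vcam1 was at 0 in the same group.

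Among leukocytes Itga4 was highest in nonclassical monocytes, the patrolling monocytes of the vessel wall, at 1401 CPM (1380 to 1421), with a UMI in 2151 of 2310 cells. Classical monocytes gave 639 (617 to 661), B cells 570 (512 to 633), NK cells 365 (329 to 404) and T cells 267 (254 to 281). Alveolar macrophages gave 113 CPM and neutrophils 98.9 (86.9 to 112). Classical monocytes and B cells stood close, with overlapping intervals and a ratio of 1.12 (1.00 to 1.26), and with mixed cells left out B cells, at 617 CPM, stood above classical monocytes at 536 CPM. The alveolar macrophage level depended on mixed cells and was 47.6 CPM without them. In 1 run 22 alveolar macrophages gave 971 CPM, against a median of 77.8 CPM over the 8 runs. In 93 Ccr7 cells of no gate, a set named for the receptor of migrating dendritic cells, Itga4 reached 1019 CPM (932 to 1111). In 167 Flt3 cells it was 567 CPM.

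Itgal encodes the alpha chain of LFA-1, the Itgb2 integrin that binds ICAM-1 and ICAM-2. Nonclassical monocytes led at 902 CPM (886 to 919), in 2103 of 2310 cells. Alveolar macrophages gave 348 (336 to 361) and classical monocytes 333 (318 to 350), and did not differ beyond counting error. Neutrophils gave 246, NK cells 200, T cells 135 and B cells 81.4 CPM. Nonclassical exceeded classical monocytes 2.71-fold (2.57 to 2.85) for Itgal and 2.19-fold (2.11 to 2.28) for Itga4, each in 8 of 8 runs. By run, Itgal lay between 697 and 1160 CPM in nonclassical and between 258 and 476 CPM in classical monocytes, so the 2 ranges did not overlap. For Itga4 the ranges were 883 to 1987 CPM and 388 to 1033 CPM, which overlap.

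Itgam encodes the alpha chain of Mac-1, which pairs with Itgb2 and binds ICAM-1, fibrinogen and complement. Neutrophils led at 665 CPM (633 to 698), in 342 of 387 cells. Nonclassical monocytes gave 409 (398 to 420) and classical monocytes 401 (384 to 419). Unlike the other 2 alpha chains, Itgam did not separate the monocytes over all cells, with a ratio of 1.02 (0.968 to 1.07) and a higher nonclassical level in 3 of 8 runs. Mixed cells made up 174 of the 561 classical monocytes. With mixed cells left out of both groups, the ratio was 1.10 (1.03 to 1.17) for Itgam, 3.16 for Itgal and 2.69 for Itga4. Neutrophils exceeded nonclassical monocytes 1.63-fold (1.54 to 1.72). By run, neutrophils lay between 386 and 1021 CPM, in 5 runs with 10 or more of them. That range overlaps the 248 to 547 CPM of nonclassical and the 266 to 557 CPM of classical monocytes. Neutrophils were above classical monocytes in 4 of 5 runs. Of the 387 neutrophils, 147 lay outside run 1. Alveolar macrophages gave 40.9 CPM and T cells 9.08 CPM (6.76 to 11.9), in 31 of 683 cells, a share of 4.54%. Among cells of no gate, 283 cells with Inhba or Arg1 gave 460 CPM and 231 C1q cells 186 CPM, and 45 cells with Il1rl1 or Gata3 gave none.

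No member was past the 4-fold rule between nonclassical and classical monocytes, of 5 tested, where 1.38% of genes were higher and 0.353% lower. Between neutrophils and classical monocytes Itga4 was past it as lower, 1 of 5, where 6.94% of genes were, and 0 were higher, where 4.10% of genes were. The classical monocyte level of Itga4 was above that of neutrophils in 5 of 5 runs.

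**Figure D4:**
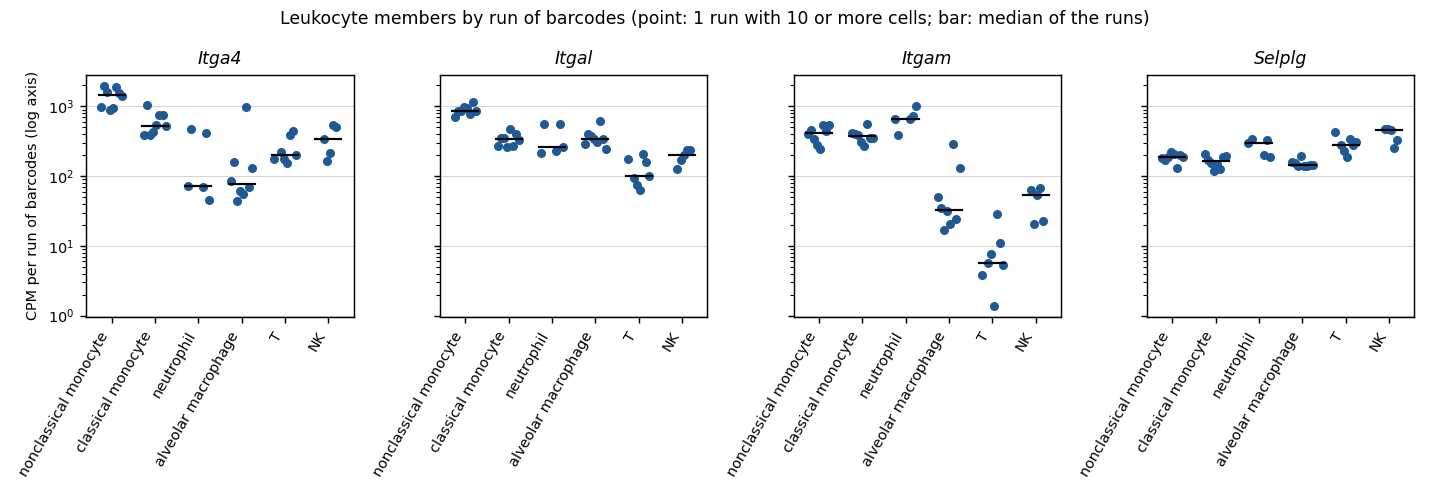
Levels of the leukocyte members in each run of barcodes with 10 or more cells (CPM, log axis), with 1 point per run and a bar at the median of the runs. Itgal and Itga4 were higher in nonclassical than in classical monocytes in 8 of 8 runs, Itgam in 3 of 8, and 1 run of alveolar macrophages stood at 971 CPM of Itga4.

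Selplg encodes PSGL-1, the ligand of P-selectin that also serves E-selectin. NK cells led at 390 CPM (352 to 430), followed by T cells at 305 (291 to 320) and neutrophils at 279 (259 to 301). Nonclassical and classical monocytes, at 183 (176 to 191) and 178 (167 to 190), did not differ beyond counting error. Alveolar macrophages gave 147 CPM. B cells were the low lymphocytes, at 39.1 CPM (25 to 58.2) in 23 of 138 cells. NK cells exceeded them 9.97-fold (6.60 to 15.7) and T cells 7.81-fold (5.23 to 12.2), both in 2 of 2 runs with 10 cells of each. Thinned to 2000 UMIs, 54.8% of NK, 43.5% of T and 8.93% of B cells held it. The 93 Ccr7 cells gave 389 CPM (336 to 448).

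In T cells against B cells Selplg was past the 4-fold rule, 1 of 5 members tested, where 5.53% of genes were, and none was lower, where 4.48% were. Itga4 went the other way within 4-fold, at 2.13-fold (1.89 to 2.40) higher in B cells. Between NK and T cells Itgam was higher, 1 of 6 tested, at 47.9 against 9.08 CPM, where 2.07% of genes were, and none was lower, where 2.35% were. For the immune-gated cells together against all others, 0 of 6 members were past the rule in either direction, where 0.672% of genes were higher and 6.04% lower. The other side of that comparison held 3300 cells of no gate with Ptprc.

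A 2-fold rule added members in several pairs, beside larger shares of all genes. In the endothelium 4 of 8 members were then higher, Icam1 with the earlier 3, where 22.5% of genes were. Immune-gated cells were higher for Itgal and Itga4, 2 of 6, where 3.64% of genes were, and lower for Icam1 and Icam2, where 9.69% were. Arterial cells were above the general capillary for 7 of 9 members, all but Icam1 and Icam2, where 12.5% of genes were. The Car4 capillary was above it for Selplg, Itgal, Itgam and Itga4, 4 of 7, where 10.7% of genes were, and below it for Selp and Icam1, where 11.6% were. With mixed cells left out, arterial Selplg, Itgal and Itgam were at 0 UMIs, and Itga4 was 10.6 CPM against 13.8 in the general capillary. In the Car4 capillary Selplg and Itgal were then each 3.19 against 5.17 CPM, and Itgam was at 0 UMIs. Itga4 stayed higher there, at 125 against 13.8 CPM. The definition of mixed cells in part fixes this loss of leukocyte genes. Nonclassical monocytes were above classical ones for Itgal and Itga4, 2 of 5, where 4.74% of genes were. T cells were below B cells for Itga4, 1 of 5, where 12.3% of genes were.

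**Figure D5:**
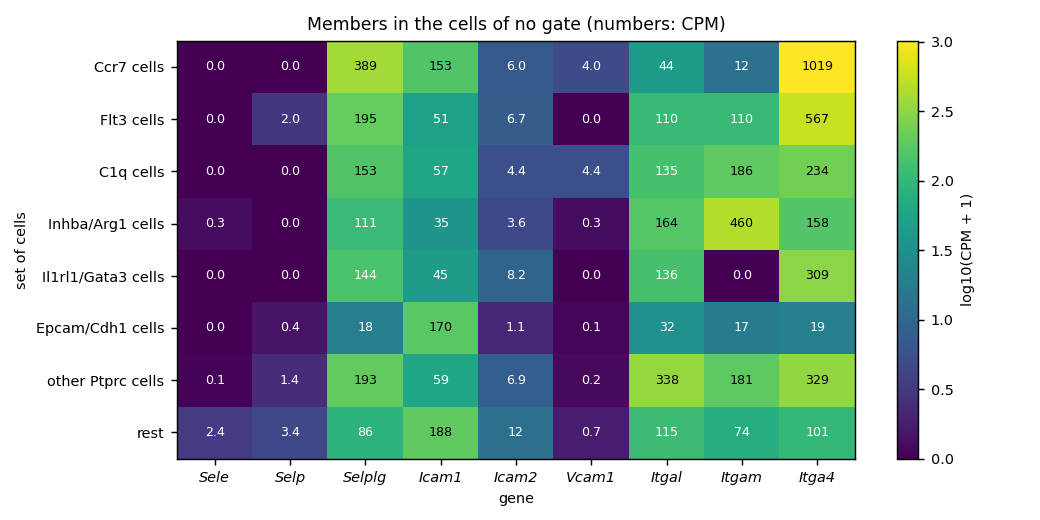
Levels of the members in 8 sets of the 5843 cells of no gate, as log10 of CPM + 1 by colour, with the CPM printed in each field. Itga4 stood at 1019 CPM and Selplg at 389 CPM in the Ccr7 cells, Itgam at 460 CPM in the Inhba/Arg1 cells, and Icam1 was higher in the Epcam/Cdh1 cells at 170 CPM than in the other Ptprc cells at 58.5 CPM.

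Further splits of the leukocytes were chosen after the gated levels had been seen. Neutrophils with 20 or more UMIs of the granule genes Camp, Ltf and Ngp, which mark younger neutrophils, numbered 52. They gave more Itgam than the other 335, at 918 CPM (845 to 995) against 577 (543 to 613), and less Selplg, at 190 against 310 CPM. Icam1 was 3.14 CPM (0.381 to 11.4) in them and 55.4 (45.2 to 67.2) in the others. Itga4 was 40.9 against 119 CPM. Nonclassical monocytes without a Ly6c2 UMI gave 1520 CPM of Itga4 and 963 CPM of Itgal, and those with one gave 1072 and 734 CPM. Itgam was 410 and 407 CPM in the same 2 sets. Among T cells, 249 with Cd8 only gave 329 CPM of Selplg, 62 with Cd4 only gave 258 CPM and 233 with Trdc, a gamma delta T cell gene, gave 387 CPM.

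Itgb2, the beta chain of Itgal and Itgam, was highest in nonclassical monocytes at 434 CPM, with 304 CPM in neutrophils and 89.2 CPM in T cells. Thinned to 2000 UMIs, 66.4% of nonclassical monocytes held both Itgal and Itga4, and 46.3% held both Itgal and Itgb2. Itgb1 was 342 CPM in nonclassical monocytes and 91.6 CPM in neutrophils. Itgb7 was highest in T cells at 172 CPM. Vwf, which shares storage granules with P-selectin, was highest in arterial cells at 997 CPM.

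Of 70 further genes of adhesion and transmigration, 69 were in the table and 51 were tested in the endothelium against all other cells. There 12 were at least 4-fold higher and 11 at least 4-fold lower, and the median log2 difference was 0.04, against 0.18 over all tested genes. Among selectin ligands and their carriers 3 of 8 were higher, Cd34 at 419 CPM, Podxl at 236 and Emcn at 284 in the endothelium, and Cd44 and Spn were lower. Of the enzymes that build selectin ligands, 2 of 6 were higher, St3gal6 and Chst2, and B4galt1 had the highest endothelial level of that list at 170 CPM. Of the integrin chains, Itga1, Itga2 and Itga6 were higher and Itgb2, Itgb7 and Itgax lower, of 10. Of the genes of integrin activation, Fermt2 was higher and Fermt3, Apbb1ip, Skap1 and Fyb lower, of 10, with Rap1b highest at 501 CPM in the endothelium and 773 in immune-gated cells. Of the junction genes, Pecam1, at 961 CPM, and Esam were higher, of 8, and Cd47 led in immune-gated cells at 541 CPM. Of the receptors and other ICAM genes, none was higher and Tnfrsf1b was lower, of 6, with Ifngr1 at 96.5 CPM in the endothelium. Of the storage genes Vwf was higher, of 3, and Cd63 was highest of that list in immune-gated cells at 84.6 CPM. In immune-gated cells Spn was at least 4-fold higher than in all other cells.

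The genes most like each member were taken from 7195 genes by the Pearson correlation of log2(CPM + 10) over the 13 groups. The groups share gates and depth, and the values are descriptions. For Vcam1 these were Crispld1 (0.99), Syt15 (0.99) and Gja5 (0.97), a gene of the arterial gate itself. For Icam1 they were Lurap1l (0.98), Ro60 (0.97) and Nectin2 (0.96), and for Icam2 Dpf2, Clec2d and Fmo1 (each 0.97). For Sele they were Myrip (0.98), Igfbp3 (0.96) and Fmo2 (0.95), and for Selp Cxcl12, Hey1 and Fbn1 (each 0.96). For Selplg they were Pik3r5 (0.97), Hcst (0.96) and Pycard (0.94). For Itgal they were Pitpnm1 (0.97), Apbb1ip (0.96) and its partner Itgb2 (0.96). For Itgam they were Cd80 (0.96), Clec4e (0.95) and Emilin2 (0.95). Itga4 had the least like neighbours, Ifi209, Abcg3 and Myo1g (0.87, 0.87 and 0.86).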

How the data were processed

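Droplet single-cell RNA libraries were made from 8 lung samples with 3' chemistry. The deposited table holds raw counts, whole-number UMIs per gene and cell that the authors made with Cell Ranger 1.3.1 on mm10, per the submitters' processing notes; the version is given as those notes write it. It was used as deposited, with no cell removed; every cell held at least 800 genes, and runs held 2574027 to 17841702 UMIs. No doublet caller was run, and leaving out mixed cells was the alternative used in its place. Cells took the first gate they passed, in the order endothelium (arterial, general capillary, Car4 capillary, other), AT1 (Rtkn2), alveolar macrophage (Ear1, Marco), classical monocyte (F13a1, Ly6c2), nonclassical monocyte (Ace, Adgre4), neutrophil (S100a8 and S100a9 at 2% of UMIs, Csf3r), T (Cd3e, Trac), NK (Ncr1) and B (Cd79a). In all, 470 cells passed gates of 2 lineages, and 50 of the 609 endothelial cells passed more than 1 endothelial split. For shares at equal depth 10383 cells were thinned to 2000 UMIs and 1423 shallower cells left out. Free RNA was not removed. A large difference means at least 4-fold with at least 20 CPM in the higher group, over all genes. Members, gates and lists were chosen with earlier results of these data known. All 9 members are named, with the partner chains, the genes of each further list highest in endothelium and in immune-gated cells, and the 3 genes most like each member; 1 gene of these lists is counted in the totals and not reported here; other names in a count of 5 or fewer were given after their values were seen. Python 3.11.15, numpy 2.4.6, scipy 1.17.1 and pandas 2.3.3 were used. The interval and thinning code was tested on simulated data.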

Additional observations from a re-analysis of the deposited data

How the results depend on the processing

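No paired analysis was possible because no cell could be placed in a library; the edgeR and DESeq2 fits, the replicate block and the leaving out of library replicates were for the same reason not run. Group levels were recomputed under other gates, without mixed cells, on thinned cells, as means over cells, without each run, without the top cell of the gene and under a raised endothelial gate with no Ptprc (the last 2 chosen after seeing the data). The highest group changed only for Sele, to the other endothelium (83.2 CPM with the gates in reverse order, 96.8 without mixed cells, 77.1 without run 5 and 113 without run 7), and for Icam1, to the general capillary without run 1 (312 CPM). These checks of the highest group covered the gates, mixed cells and runs.

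With gate thresholds raised by 1, levels were 125 CPM for Sele in arterial cells, 436 for Icam1 in AT1 cells, 822 for Icam2 in the Car4 capillary, and 976 for Itgal and 1576 for Itga4 in nonclassical monocytes. With the gates in reverse order they were 267 for Selp in arterial cells, 415 for Icam1, 607 for Icam2, 811 for Itgal and 1282 for Itga4. Without mixed cells they were 222 for Selp, 434 for Icam1, 148 for Vcam1, 932 for Itgal and 1444 for Itga4. Thinned cells gave 182 for Selp, 458 for Selplg in NK cells, 813 for Icam2, 1057 for Itgal and 1545 for Itga4. Means over cells gave 147 for Selp, 423 for Icam1, 909 for Icam2, 1078 for Itgal and 1605 for Itga4. The raised endothelial gate gave 137 for Sele, 848 for Icam2 and 126 for Vcam1. Without the top cell Sele gave 24.9 and Selp 38.4 in arterial cells.

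Leaving out each run in turn gave 28.9 to 131 CPM for Sele, 41.7 to 136 for Selp and 51.3 to 83.2 for Vcam1 in arterial cells, 252 to 413 for Icam1 in AT1 cells, 654 to 772 for Icam2 in the Car4 capillary, 820 to 961 for Itgal and 1308 to 1518 for Itga4 in nonclassical monocytes, 648 to 680 for Itgam in neutrophils and 368 to 418 for Selplg in NK cells. The arterial values of Sele and Selp were lowest without run 5.

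With a 2-fold rule the members past it were 4 higher in the endothelium (22.5% of all genes), 2 higher and 2 lower in immune-gated cells (3.64% and 9.69%), 7 higher in arterial cells (12.5%), 4 higher and 2 lower in the Car4 capillary (10.7% and 11.6%), 2 higher in nonclassical monocytes (4.74%) and 1 lower in T cells (12.3%). These 2-fold counts include mixed cells. Under the 4-fold rule without mixed cells 1 was higher in the Car4 capillary (3.79%). Depth limits Sele, Selp and Vcam1 most: their totals over the endothelium were 70, 73 and 39 UMIs.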
